A study of Caenorhabditis elegans with 6 samples.

Results

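The flavin monooxygenases fmo-1 to fmo-5 of Caenorhabditis elegans were followed in worms raised on chlorpyrifos (CPF) and in control worms. The members were taken by gene symbol, and each of the 5 was found by both its sequence name and its annotated symbol. The family made up 5 of the 18865 genes and 5 of the 22490 probes on the array, with 1 probe for each gene. The sequence names were K08C7.2 for fmo-1, K08C7.5 for fmo-2, Y39A1A.19 for fmo-3, F53F4.5 for fmo-4 and H24K24.5 for fmo-5. The family was selected on its ratios of CPF over control, which were known from these same arrays. Those ratios are therefore given as a description with no p-value of their own, and where the text says that a member passed the threshold of the fit over all genes, this too is a description. Tests are given for the dye effect and for the difference between scan days.

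CPF is an organophosphorus insecticide that blocks acetylcholinesterase. Both groups were the wild type strain N2, raised from synchronized eggs on agar seeded with OP50 bacteria at 16 °C. They were collected after 72 hours, at larval stage L3 per the labels and between L3 and L4 per the methods. The treated agar held CPF, at 0.5 mg/ml per the labels, although the written methods give that figure per litre. The methods place the dose below published effect concentrations for reproduction and growth, and only the figure per litre lies below them. The control agar held acetone, in which CPF was dissolved, so acetone was common to both groups, and each sample pooled whole worms from 4 dishes. Each of 6 arrays carried 1 CPF sample and 1 control sample, with CPF in Cy5 on 3 arrays (CPF Cy5 replicates 1 to 3) and in Cy3 on the other 3 (CPF Cy3 replicates 1 to 3). The sources used here do not say if each array had its own control extract, so errors and p-values reflect the spread between arrays. The methods describe the CPF samples as independent biological replicates.

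Flavin monooxygenases are enzymes that use FAD, NADPH and oxygen to add an oxygen atom to nitrogen or sulphur atoms of foreign compounds and of some metabolites. They act beside the cytochrome P450 enzymes in the first phase of detoxification. In C. elegans, fmo-2 is known as an intestinal gene that is induced by low oxygen and by fasting through the transcription factors HIF-1, NHR-49 and HLH-30, and that lengthens life when overexpressed. The gene fmo-4 is known from the hypodermis, where it is needed to survive in dilute medium, and has been linked to calcium handling. No specific role is given here for fmo-1, fmo-3 and fmo-5.

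The share of probes above background, that is, brighter than the local background by more than 2 SD, was 34.98% to 61.6% in a sample, and no sample had over 144 saturated probes. Log2 ratios of CPF over control, compared across genes, correlated with r between 0.32 and 0.57 among 4 of the arrays. CPF Cy3 replicates 2 and 3 correlated with those 4 at r between -0.09 and 0.13, and with each other at 0.30. In CPF Cy3 replicate 2, 1042 probes lay at least 2 log2 units below their median of the other arrays in both channels, against 1 to 334 on the other arrays. The arrays were scanned on 2 days, with CPF Cy5 replicates 1 and 2 and CPF Cy3 replicate 1 on scan day 1 and the others on scan day 2. Markers of stage were lower in the CPF samples. The summed normalized level of 6 yolk protein genes was 9.51 to 12.78 (log2) in CPF samples and 12.68 to 13.57 in control samples. That of 15 major sperm protein genes, whose close sequences may share signal, was 14.66 to 16.39 and 16.53 to 17.70. Of the yolk genes 0 and of the sperm genes 2 were above background nowhere. The part of these differences in the values of the fmo genes was not tested.

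Transcripts of fmo-5 were more abundant in CPF samples on all 6 arrays. Its log2 ratio of CPF over control was 1.52, 1.51 and 1.69 on CPF Cy5 replicates 1 to 3 and 1.08, 0.96 and 1.51 on CPF Cy3 replicates 1 to 3. These correspond to ratios of 2.87, 2.85, 3.23, 2.11, 1.95 and 2.85. The lowest ratio of fmo-5 was above the highest ratio of any other member, 0.68 for fmo-4. The fitted log2 fold change was 1.38 ± 0.09 (SE, n = 6 arrays), which is 2.60-fold. Only 17 of the 18865 genes had a higher fold change. In whole worms, a change in the number of cells that make a transcript and a change in transcript per cell cannot be told apart.

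The rise of fmo-5 was measured on spots that could be read in every sample. It was above background in all 6 CPF and all 6 control samples, and it had no saturated pixels. Its unnormalized brightness was 610 to 1447 in CPF samples and 292 to 508 in control samples. The paired values were closest on CPF Cy3 replicates 1 and 2, at 610 against 490 and 670 against 443 before normalization. The control spots were the dimmer ones, at 1.77 to 3.10 times their local background, against 3.94 to 8.82 times in CPF samples. The normalized level was 9.71 ± 0.36 (SD, log2) in CPF samples and 8.33 ± 0.53 in control samples. The size of the fold moved with the background correction. It was 2.17-fold without correction, 2.60-fold with normexp and 2.98-fold with plain subtraction.

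**Figure D1:**
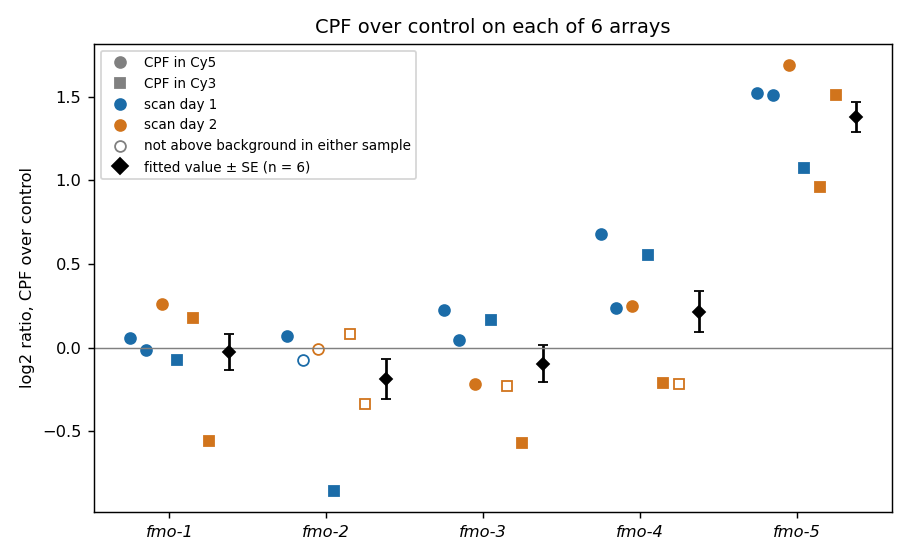
Log2 ratio of CPF over control (vertical axis) for each fmo gene on each of the 6 arrays. Circles have CPF in Cy5, squares have CPF in Cy3, colours mark the scan day, open symbols were not above background in either sample, and black diamonds are the fitted value ± SE. The ratios of fmo-5 lie between 0.96 and 1.69, above those of the other genes.

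The hypodermal gene fmo-4 had the next highest fold change, 0.22 ± 0.12 (SE, n = 6). Its log2 ratio was 0.68, 0.24 and 0.25 on CPF Cy5 replicates 1 to 3 and 0.56, -0.21 and -0.22 on CPF Cy3 replicates 1 to 3. Its ratio was thus above 0 on 4 arrays, and the exceptions were CPF Cy3 replicates 2 and 3. On CPF Cy3 replicate 3 the spot was not above background in either sample, with a brightness of 261 for CPF and 224 for control. Elsewhere its brightness was 365 to 2490 for CPF and 439 to 1930 for control.

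The ratios of fmo-1 were spread around 0. They were 0.06, -0.02 and 0.26 on CPF Cy5 replicates 1 to 3 and -0.07, 0.18 and -0.56 on CPF Cy3 replicates 1 to 3, with a fitted value of -0.03 ± 0.11. The spot was bright throughout, at 1002 to 1863 for CPF and 718 to 1768 for control, and above background in every sample. Of all members it gave, beside fmo-5, the only complete set of spots above background. Its lowest ratio came from CPF Cy3 replicate 3, and the remaining 5 lay within 0.3 of 0.

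For fmo-3 the ratios were 0.23, 0.05 and -0.22 on CPF Cy5 replicates 1 to 3 and 0.17, -0.23 and -0.57 on CPF Cy3 replicates 1 to 3. The fitted value was -0.10 ± 0.11. All 3 arrays of scan day 1 lay above 0 and all 3 of scan day 2 below it. On CPF Cy3 replicate 2 its spot was not above background, with a brightness of 175 for CPF and 174 for control. Elsewhere the brightness was 725 to 1008 for CPF and 513 to 1061 for control.

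The stress-inducible gene fmo-2 was measured poorly. Its spot was above background for CPF on 1 array and for control on 2 arrays. On CPF Cy5 replicate 1 it was bright in both samples, at 2162 for CPF and 1680 for control, with a log2 ratio of 0.07. On CPF Cy3 replicate 1 the control sample alone passed, at 406 against 210 for CPF, with a ratio of -0.86. The remaining 4 arrays gave a brightness of 166 to 270, with ratios of -0.07, -0.01, 0.08 and -0.34 that compare spots near background. The fitted value of -0.19 ± 0.12 rests on these spots, and a change of fmo-2 was not measurable at this signal.

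**Figure D2:**
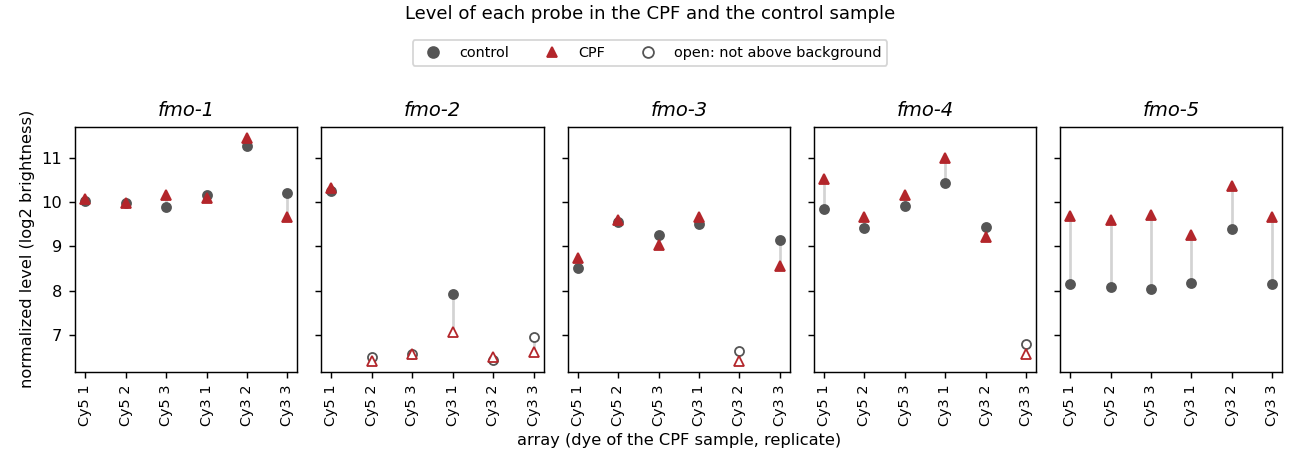
Normalized level (log2 brightness, vertical axis) of each fmo probe in the CPF sample (triangles) and the control sample (circles) of each array, named by the dye of the CPF sample and the replicate. Open symbols were not above background. The gap between CPF and control is present on every array for fmo-5, and the level of fmo-2 is high on a single array. Levels of different probes are not comparable with each other.

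In order of fitted fold change the genes were fmo-5, fmo-4, fmo-1, fmo-3 and fmo-2. The distance from fmo-5 to fmo-4 exceeded the spread over arrays, whose SD was 0.29 for fmo-5 and 0.37 for fmo-4. Neighbours among the other 4 were closer to each other than that spread, with SDs of 0.29 for fmo-1, 0.36 for fmo-2 and 0.30 for fmo-3. The fold changes of these 4 lay within 0.3 log2 units of 0, as did those of 91.8% of all genes. By limma with Benjamini-Hochberg adjustment over all genes at 0.05, 1 of the 5 members was called higher, fmo-5, where 0.323% of genes were called higher, and 0 were called lower, where 0.869% were (1.19% in either direction). Nothing is read from these counts, since the family was chosen with the same ratios known. By the rank product, the method named in the study, fmo-5 was again the only member called higher and 0 were called lower, beside 0.864% and 2.07% of genes. A ratio above 0 on all 6 arrays was found for fmo-5 among the members and for 2.87% of genes, and a ratio below 0 on all 6 arrays for 0 members and 4.27% of genes.

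The dye effect, the part of the ratio that stays with Cy5 whichever sample carries it, did not enter the choice of the genes. It was above 0 for all 5 probes, as for 49.7% of all probes. By limma it was 0.13 ± 0.11 for fmo-1 (adjusted p = 0.878), 0.18 ± 0.12 for fmo-2 (0.860), 0.11 ± 0.11 for fmo-3 (0.886), 0.17 ± 0.12 for fmo-4 (0.863) and 0.20 ± 0.09 for fmo-5 (0.860). None of the members was called, and 0.0267% of probes were. At an unadjusted p below 0.05 these were 0 members and 1188 probes. For fmo-5 the mean ratio was 1.57 (SD 0.10) with CPF in Cy5 and 1.18 (SD 0.29) with CPF in Cy3, and the fitted fold change is the mean of both orientations.

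Within scan days the fold change of fmo-5 was 1.30 on day 1 and 1.46 on day 2. The difference of day 2 minus day 1 was 0.17 ± 0.20 (limma, adjusted p = 0.839). For fmo-4 the values were 0.51 and 0.02, a difference of -0.49 ± 0.21 (unadjusted p = 0.0525 and adjusted p = 0.587 by limma). Those of fmo-3 were 0.15 and -0.31, a difference of -0.46 ± 0.18 (unadjusted p = 0.0362 and adjusted p = 0.572 by limma). The days thus differed most for these 2 genes, by more than either of their fitted values over all arrays. Day 2 held CPF Cy3 replicates 2 and 3, which correlated least with the other arrays, so scan day and these arrays cannot be told apart. On the remaining array of day 2, CPF Cy5 replicate 3, fmo-4 was at 0.25 and fmo-3 at -0.22. The fmo-4 spot of CPF Cy3 replicate 3 and the fmo-3 spot of CPF Cy3 replicate 2 were not above background in either sample. For fmo-1 the values were -0.03 and 0.03 (adjusted p = 0.962 for the difference by limma), and for fmo-2 they were -0.43 and -0.07 (adjusted p = 0.689 by limma). The -0.43 of fmo-2 comes from the ratio of -0.86 on CPF Cy3 replicate 1, where the CPF spot was not above background. No gene of the array was called for a difference between days (0%). At an unadjusted p below 0.05 there were 1613 genes (8.55%), with fmo-3 among them.

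With CPF Cy3 replicates 2 and 3 both left out, a choice made after the data were seen, fmo-5 had a fold change of 1.33 ± 0.10. That of fmo-4 was 0.47 against 0.22 over all arrays, and that of fmo-2 was -0.43. CPF Cy3 replicate 1 was then the only array with CPF in Cy3 and weighed as much as the arrays with CPF in Cy5 together. For fmo-2 its ratio was -0.86, from a CPF spot not above background, so the -0.43 does not measure a change. The value of fmo-3 was then 0.09 ± 0.12, on the other side of 0, and that of fmo-1 was 0.01 ± 0.10. Over 21 alternative fits the fold change of fmo-5 ran from 1.12 to 1.57 on the log2 scale. It was past the threshold in all of them but plain background subtraction, where its value was the highest (1.57) and 3 genes of the whole array were called higher. As the ratios chose the family, these calls are not evidence for it.

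**Figure D3:**
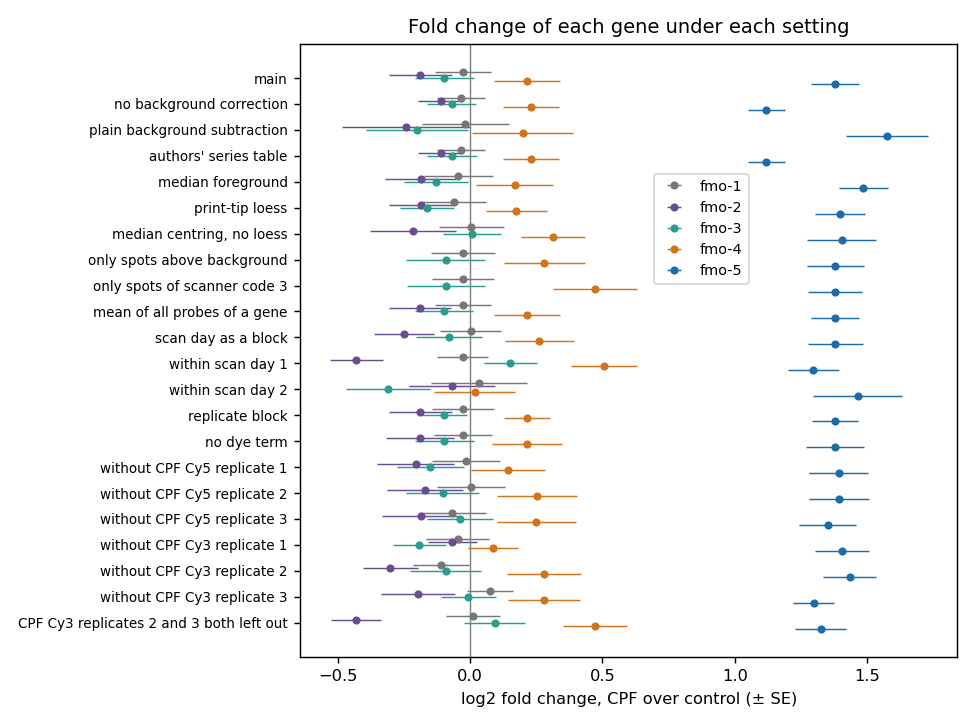
Fitted log2 fold change of CPF over control (horizontal axis, ± SE) of each fmo gene in the fit reported here (main) and in the alternative fits named on the vertical axis. Values of fmo-5 run from 1.12 to 1.57 and stay apart from those of the other genes. Values of fmo-4 run from 0.02 to 0.51, and those of fmo-1 and fmo-3 fall on both sides of 0. For fmo-2 no value could be fitted on spots above background or of scanner code 3 alone.

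Ratios of other genes over the 6 arrays were set against those of the 2 members with the largest absolute fold change, fmo-5 and fmo-4, among 7042 genes that were above background on all arrays of a condition. The nearest to fmo-5 by root mean square difference of log2 ratios were W01A11.1 (0.28), Y47H10A.5 (0.28) and T16G1.6 (0.37). Being chosen for ratios like those of fmo-5, they had high fold changes by construction, of 1.14 ± 0.07, 1.24 ± 0.12 and 1.11 ± 0.08. Their ratios correlated with those of fmo-5 over the 6 arrays at r of 0.95, 0.58 and 0.46. Nearest to fmo-4 were dpy-7, a cuticle collagen (0.06), Y64H9A.2 (0.09) and R02D5.3 (0.10). These had fold changes of 0.22 ± 0.14, 0.23 ± 0.14 and 0.19 ± 0.11, and none of them was called. Their r with fmo-4 of 0.99, 0.99 and 0.97 is high by construction too, since they were the closest of 7042 genes. On CPF Cy3 replicate 3 the fmo-4 ratio came from a spot not above background in either sample. The ratios that were compared come from the same arrays and share their dye orientation and scan day.

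The genes on either side of each member were read from the gene order of assembly WBcel235, and none of those measured was called. Beside fmo-5 were nas-32 (0.01 ± 0.13), trm-2A (0.18 ± 0.12) and adh-5 (0.19 ± 0.10), the latter named as an alcohol dehydrogenase. The spot of nas-32 was above background in 2 CPF and 3 control samples and that of trm-2A in 1 and 2, so their ratios mostly compare dim spots, while adh-5 was above background in every sample. The genes fmo-1 and fmo-2 lie close to each other. Between them are K08C7.7 (-0.07 ± 0.14), epi-1, which encodes a laminin alpha chain (0.10 ± 0.17), and K08C7.4 (0.14 ± 0.11). On the outer sides were K08C7.1 (-0.23 ± 0.09) and R102.1 (0.15 ± 0.23). Around fmo-4 the values ran from -0.23 for spig-9 to 0.14 for F53F4.7, and around fmo-3 from -0.11 for Y39A1A.21 to 0.08 for Y39A1A.20. The spots of F53F4.7, F53F4.4 and rdy-2 beside fmo-4, and of Y39A1A.17 beside fmo-3, were above background in 0 CPF and 0 control samples. That of Y39A1A.18 beside fmo-3 was above it in 0 CPF samples and 1 control sample, and that of K08C7.4 in 1 and 0. A change of these genes was not measurable at this signal.

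Lists of genes related to the known biology of the family were counted in the same fit, in which the median over all genes was 0.01 and 1.19% of genes were called in either direction. At that share, lists of this size would hold 0 or few called genes, so a count of 0 sets none of them apart. Among 11 regulators of fmo-2 that were measured, 0 were called, and their median was 0.07. The largest values were those of pha-4, a forkhead transcription factor (0.28 ± 0.12), and mdt-15, a Mediator subunit (-0.17 ± 0.24). Of 10 genes of the HIF-1 pathway 0 were called, with a median of -0.005. The lowest there was cysl-2, a cysteine synthase family member that responds to HIF-1 (-0.34 ± 0.07), which was below 0 on all 6 arrays, followed by the ferritin gene ftn-1 (-0.19 ± 0.14).

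Genes of fasting and lipid use gave 0 calls among 13 and a median of -0.12. The lysosomal lipase gene lipl-3 had -0.78 ± 0.27 and the fatty acid desaturase gene fat-5 had 0.57 ± 0.13. The spot of lipl-3 was above background in only 2 CPF and 4 control samples, while that of fat-5 was in every sample. Of 12 genes that make or use NADPH or supply flavin, the cofactors of the family, 0 were called, with a median of 0.05. The largest values were those of emb-8, the NADPH cytochrome P450 reductase (0.49 ± 0.15), and gspd-1, glucose 6-phosphate dehydrogenase (-0.21 ± 0.11). The 24 genes of sulphur and one-carbon metabolism gave 0 calls and a median of -0.04. The S-adenosylmethionine synthetase gene sams-5 had -0.70 ± 0.18, with its spot above background in 4 CPF and 4 control samples. The cystathionine gamma-lyase gene cth-2 had -0.34 ± 0.35, but it was above 0 on 4 of 6 arrays, with a lowest ratio of -2.71. The 7 genes of the kynurenine pathway gave 0 calls and a median of -0.03, with -0.42 ± 0.16 for afmd-1 and -0.32 ± 0.29 for umps-1. The spot of afmd-1 was above background in 4 CPF and 6 control samples. The ratio of umps-1 was above 0 on 2 arrays and had a lowest value of -2.05.

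Among 14 osmotic and calcium genes, the field in which fmo-4 is known, 0 were called higher and 1 lower, with a median of 0.04. The gene that fell was hmit-1.1, a myo-inositol transporter (-0.67 ± 0.12, limma adjusted p = 0.0498), just inside the threshold and below 0 on 5 of 6 arrays. Its spot was above background in 4 CPF and 5 control samples, and with CPF Cy3 replicates 2 and 3 left out it was at -0.61 and not called (limma adjusted p = 0.124). Markers of the tissues in which fmo-2 and fmo-4 are known gave 0 calls among 9 for intestine and 0 among 10 for hypodermis, with medians of -0.06 and 0.07. The largest intestinal values were those of ifb-2, an intermediate filament gene (-0.33 ± 0.10), and the protease gene asp-1 (-0.13 ± 0.09). Among hypodermal markers they were bli-1, a cuticle collagen gene (-0.71 ± 0.18), and the nuclear receptor gene nhr-25 (0.38 ± 0.11). Summed levels of the intestinal markers were 16.33 to 16.68 (log2) in CPF samples and 16.15 to 16.75 in control samples. Those of the hypodermal markers were 15.65 to 16.09 and 15.69 to 16.04.

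The other large family of monooxygenases on the array, the cytochrome P450 genes, had 10 of 74 members called higher and 0 lower, beside 0.323% and 0.869% of all genes, with a median of 0.05. The fold changes of those 10 ran from 0.69 ± 0.08 for cyp-37A1 to 2.28 ± 0.12 for cyp-35A4, and all 10 were above 0 on all 6 arrays. The fold change of fmo-5 lay between those of cyp-25A2 (1.23 ± 0.11) and cyp-29A2 (1.47 ± 0.16). Those of cyp-25A1 (0.80 ± 0.12), cyp-25A5 (0.93 ± 0.11) and cyp-29A3 (1.09 ± 0.15) were below it. The spot of cyp-25A1 was above background in 5 CPF samples and 1 control sample, and that of cyp-35A5, also called, in 5 and 4. Yolk genes, made in the intestine of adults, had 4 of 6 members called lower and a median of -1.84, and sperm genes had 7 of 15 called lower and a median of -1.65, beside 0.869% of all genes called lower. Examples were vit-6 (-2.34 ± 0.38), vit-2 (-2.10 ± 0.31) and msp-45 (-1.87 ± 0.31). The spot of vit-6 was above background in 4 CPF and 5 control samples, and that of vit-1, also called, in 3 and 6. The genes called changed in part when CPF Cy3 replicates 2 and 3 were left out. Then cyp-25A1, vit-1 and vit-4 were no longer among them, while cyp-32B1 and vit-5 were.

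With CPF Cy3 replicates 2 and 3 left out, 3 further genes of the lists on fasting and tissues were called lower, icl-1 of the fasting list at -1.098 and the intestinal markers ifb-2 at -0.52 and cpr-1 at -0.49. The lists of fmo-2 regulators, HIF-1 pathway, NADPH and flavin, sulphur metabolism, kynurenine pathway and hypodermal markers again gave 0 calls. Of the cytochrome P450 genes 10 were called higher and 1 lower, of the yolk genes 3 lower and of the sperm genes 12 lower, with 200 genes of the array called higher and 443 lower.

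**Figure D4:**
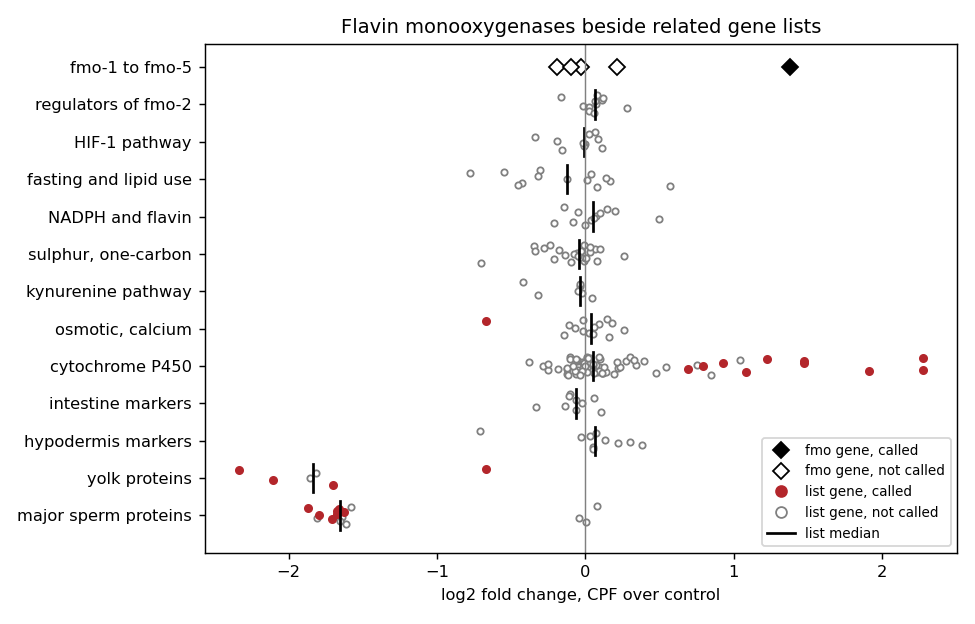
Fitted log2 fold change of CPF over control (horizontal axis) of the fmo genes (diamonds) and of the genes of each list (circles), with list medians as black bars. Filled symbols were called at an adjusted p below 0.05. Among the fmo genes only fmo-5, at 1.38, is filled, and it lies within the range of the 10 called cytochrome P450 genes, 0.69 to 2.28.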

How the data were processed

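RNA of CPF and control worms was compared on 6 long-oligonucleotide arrays with exchanged dyes. Per the file headers, spots were read with a ScanArray Express scanner. The deposited intensity values are linear and unnormalized, and give mean and median brightness per spot with its local background. Beside them the authors deposited the percent of saturated pixels and a scanner code per spot, which the sources used here do not explain. The authors also deposited a table of log2 ratios. Its columns equalled CPF over control after loess without background correction, to within 0.0148, with medians from -0.00213 to 0.00608, so its scale, centring and direction were known. It served as an alternative.

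Background was corrected with normexp (offset 50, which understates the change of dim spots), and ratios were normalized by global loess with control spots at weight 0. Aquantile was added for levels only. Of 23232 spots, 742 control or empty spots were left out. Names came from the locus tags of the gene table of WBcel235 for 21382 of 22490 probes, from the platform annotation for 31, and from the file for 1077. A gene was represented by its brightest probe. limma 3.58.1 in R 4.3.3 fitted a treatment and a dye term to all probes, with Benjamini-Hochberg adjustment over 18865 genes, or over all probes for the dye effect. An adjusted p below 0.05 was the rule for a call. Tests were two-sided. The rank product used 100 permutations and a percentage of false positives below 0.05. The fit was tested on simulated data. Other tools were pandas 2.3.3 and matplotlib 3.10.9. Precision is limited by the number of arrays and by how far spots exceed background.

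The members and gene lists were chosen with earlier results of these data known. Named were the members, the 3 genes with the most similar ratios to the 2 members with the largest fold changes, 2 genes on either side of each member, and from each list those called, or else the 2 with the largest absolute fold changes. Of the listed genes, nhr-49, rft-1, sqrd-2, haao-1 and opt-2 were not matched to a probe. Alternatives concerned background, normalization, filters, probe choice, scan day, dye, replicate number and arrays left out. No sequences are shown.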

Additional observations from a re-analysis of the deposited data

Results flagged for a closer look

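Of 15 sets of 6 values (ratio, CPF level and control level of each fmo probe) 7 had a value far from the rest by Dixon's criterion, where chance gives about 1 in 20 for a single set. The sets are not independent, since the ratio and both levels of a probe come from the same spots. Most of the 7 lay on CPF Cy3 replicate 2, so their number is not a measure of excess over chance. All 7 were levels and none were ratios. In CPF Cy3 replicate 2, fmo-1 had levels (log2) of 11.45 in CPF and 11.27 in control, against a nearest value of 10.15 and 10.21, and fmo-3 had levels of 6.42 and 6.65, against a nearest value of 8.57 and 8.51. The control level of fmo-5 on that array was 9.40, against 8.17 for the nearest, while its ratio there was 0.96. Before normalization, fmo-1 (1220 and 1384) and the fmo-5 control spot (443) lay within the brightness range of the other arrays. Their high levels thus appeared only after normalization, on the array with the smallest shares of probes above background (34.98% for CPF and 41.5% for control). The CPF level of fmo-2 in CPF Cy5 replicate 1 was 10.32, against 7.06 for the nearest. The control level of fmo-4 in CPF Cy3 replicate 3 was 6.80, against 9.42 for the nearest.

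The ratios of fmo-3 had opposite signs on the scan days, above 0 on all 3 arrays of day 1 and below 0 on all 3 of day 2, and the means of the days were 0.49 apart. The limma test of the difference gave an adjusted p of 0.572. On CPF Cy3 replicate 2, scanned on day 2, the fmo-3 spot was not above background in either sample.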

How the results depend on the processing

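Fold changes of the 5 members kept their side of the threshold in all alternatives except fmo-5 with plain background subtraction, where 0 members were called higher. In the fit reported, 61 genes of the array were called higher and 164 lower. Counts called higher were 13 without background correction, 13 in the authors' table, 3 with plain subtraction, 100 with median centring, 235 within scan day 1, 163 by the rank product and 200 with CPF Cy3 replicates 2 and 3 both left out, the last chosen after seeing the data. Counts called lower were 6, 6 and 0 in the first 3 of these, 100 with median foreground, 97 with scanner code 3 only, 81 with scan day as a block, 629 within scan day 1, 97 within scan day 2, 391 by the rank product and 443 with those 2 arrays left out. Leaving out 1 array gave 7 (without CPF Cy5 replicate 2) to 109 (without CPF Cy3 replicate 1) higher and 0 (without CPF Cy5 replicate 2) to 203 (without CPF Cy3 replicate 1) lower. The higher count was also 16 and 27 without CPF Cy5 replicates 1 and 3 and 19 without CPF Cy3 replicate 3, and the lower count 21, 57 and 5. The cause was not tested. The members called were 1 higher and 0 lower in each of these 6 fits, with fmo-5 at 1.30 to 1.43.

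The replicate numbers are shared by both dye orientations, and deviations of same-numbered arrays correlated at 0.158, 0.0703 and 0.0241. Of 6 arrays 4 correlated best with their own number. With a replicate block, fmo-5 had a fold change of 1.38 ± 0.09 and was the 1 member called, beside 72 genes higher and 223 lower on the array.

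For fmo-2 the fits on spots above background and on scanner code 3 could not be made, since 2 and 1 arrays remained. Leaving out CPF Cy3 replicate 1 moved fmo-4 to 0.09 and fmo-2 to -0.07, and leaving out CPF Cy3 replicate 3 moved fmo-1 to 0.08. Signal close to background limits fmo-2 on all arrays but CPF Cy5 replicate 1, fmo-3 and fmo-4 on 1 array each, and the size of the fold of fmo-5. The fmo-4 spot of CPF Cy3 replicate 2 passed as above background but was dim, at 2.23 times background for CPF and 2.68 for control. With scanner code 3 only, which left out CPF Cy3 replicates 2 and 3 for fmo-4, its fold change was 0.47.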
